A study of Mus musculus with 12 samples.

Results

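The insulin-like growth factor (IGF) and insulin genes of the heart were examined in mice whose striated muscle lacks Sdhaf4, an assembly factor of mitochondrial complex II. The 10 genes were taken by their symbols, as members of this pathway chosen with earlier results of these data known: the ligands Igf1 and Igf2, the receptors Igf1r and Insr, the receptor substrates Irs1 and Irs2, and the binding proteins Igfbp3, Igfbp4, Igfbp5 and Igfbp7. Each symbol matched 1 of the 43686 rows of the deposited table, and all 10 were among the 17155 rows kept after a filter on low counts. RNA of the ventricular wall was sequenced from 6 control hearts (WT, Sdhaf4fl/fl without Cre) and 6 mutant hearts (KO, Sdhaf4fl/fl with Ckmm-Cre, labelled Sdhaf4-/-), so the floxed alleles were present in both groups and the Cre in the mutants alone. The labels give the strain as C57BL/6 and the age as 2 months, whereas the main text of the study gives a younger age for these hearts. Its reporting summary names male mice for the omics work, at ages of which the older is near that of the labels. Ckmm-Cre is driven by the muscle creatine kinase promoter and acts in cardiac and skeletal muscle, so fibroblasts, endothelial cells and other non-muscle cells of the wall keep the floxed alleles intact, and the RNA of all of them was sequenced together.

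IGF1 and IGF2 are secreted peptides that bind the IGF1 receptor, a tyrosine kinase closely related to the insulin receptor. Both receptors phosphorylate the adaptors IRS1 and IRS2, which recruit phosphoinositide 3-kinase (PI3K) and so activate the kinase AKT, a pathway known in the heart for growth of the cardiomyocyte and for its uptake of glucose. IGF binding proteins hold the ligands outside the cell and govern how much of them reaches the receptors. IGFBP7 is the exception of the family, since it binds IGFs weakly and is a protein of the vascular matrix.

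Levels are given in CPM, the count of a gene relative to the size of its library, scaled between libraries by the TMM method. The libraries held 23747014 to 31393393 counts, and Sdhaf4 itself lay between 14.3 and 30.3 CPM in the WT hearts and between 2.25 and 2.73 CPM in the KO hearts. Summed over 9 cardiomyocyte markers, the libraries reached 57763 to 63339 CPM in WT and 48732 to 67628 CPM in KO. KO replicate 3 lay nearest to the WT hearts on the first principal component of all genes (31.8, other KO hearts 51.3 to 58.0), and KO replicate 6 lay at the end of the second (38.1, other KO hearts -30.1 to 20.8). Where leaving out both changes a call of the 10 genes or the count of a gene list, that value is also given.

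Of the 10 genes, 5 were higher in the KO hearts and 2 were lower by the quasi-likelihood test of edgeR (adjusted p below 0.05), where 51.1% of all rows tested passed, 25.6% higher and 25.5% lower. The genes that rose were Igf1, Igf1r, Igfbp3, Igfbp4 and Igfbp7, and those that fell were Insr and Irs2. Igf2, Irs1 and Igfbp5 did not pass. Igf1, Irs2, Igfbp3 and Igfbp7 also passed the thresholds of the methods, an adjusted p under 0.005 with a log2 fold change over 1 in size, 3 of them higher and 1 lower, as did 10.2% of all rows (5.36% higher, 4.87% lower). In 4 genes (Igf1, Igfbp3, Igfbp4 and Igfbp7) the lowest KO heart lay above the highest WT heart, and in Insr the highest KO heart lay below the lowest WT heart. Such a separation of the groups was found in 30.1% of all rows (14.9% higher, 15.2% lower). The median log2 fold change of the 10 genes was 0.26, and that of all rows 0.00217.

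**Figure D1:**
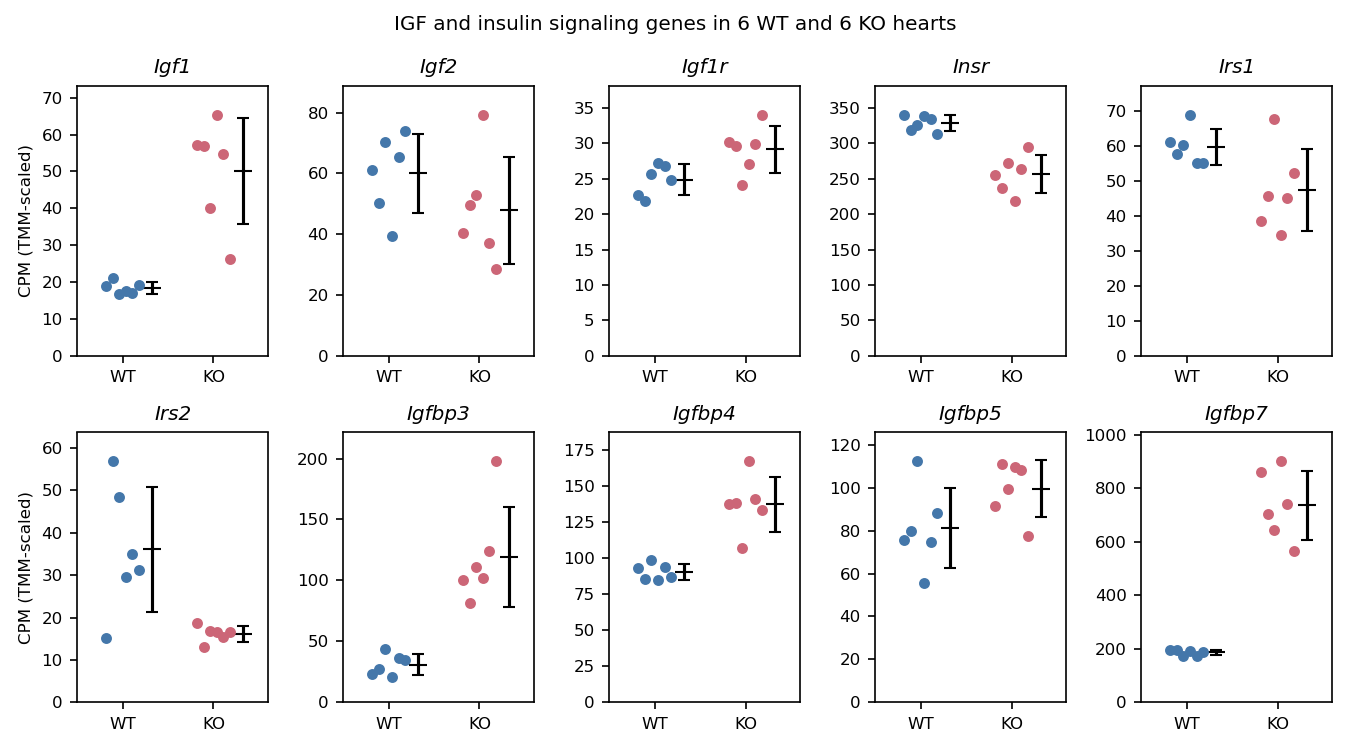
Level of each of the 10 genes in every heart, in TMM-scaled CPM on axes that start at 0, with WT in blue, KO in red and the mean with its SD (n = 6) in black beside the points. The KO hearts sit wholly above the WT hearts for Igf1, Igfbp3, Igfbp4 and Igfbp7 and wholly below them for Insr, and KO replicate 6 stands at 197.6 CPM for Igfbp3.

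The 4 genes past both thresholds are shown with the 250 bases before their start site, since they moved most and their upstream sequences differ in kind. The sequences are those of RefSeq on GRCm38.p6, given 5′ to 3′ on the strand of the gene, with CG dinucleotides in capitals. They lie at chr10:87860861-87861110 for Igf1 (plus strand), chr11:7213924-7214173 for Igfbp3 (minus strand), chr5:77408046-77408295 for Igfbp7 (minus strand) and chr8:11008930-11009179 for Irs2 (minus strand).
Igf1: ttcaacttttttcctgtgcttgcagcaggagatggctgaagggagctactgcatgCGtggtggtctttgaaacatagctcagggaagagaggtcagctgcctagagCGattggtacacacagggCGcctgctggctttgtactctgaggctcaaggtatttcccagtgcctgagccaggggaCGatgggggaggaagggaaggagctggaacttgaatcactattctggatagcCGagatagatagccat
Igfbp3: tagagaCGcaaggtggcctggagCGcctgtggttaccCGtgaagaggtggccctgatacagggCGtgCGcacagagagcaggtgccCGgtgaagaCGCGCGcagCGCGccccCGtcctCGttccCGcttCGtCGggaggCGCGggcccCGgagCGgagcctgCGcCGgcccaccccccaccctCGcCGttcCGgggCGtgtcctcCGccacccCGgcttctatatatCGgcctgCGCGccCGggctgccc
Igfbp7: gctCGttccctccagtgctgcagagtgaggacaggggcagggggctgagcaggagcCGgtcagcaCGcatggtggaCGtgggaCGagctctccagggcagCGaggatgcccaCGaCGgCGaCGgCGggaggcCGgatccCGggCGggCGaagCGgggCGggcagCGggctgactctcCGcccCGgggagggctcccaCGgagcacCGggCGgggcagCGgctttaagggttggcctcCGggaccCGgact
Irs2: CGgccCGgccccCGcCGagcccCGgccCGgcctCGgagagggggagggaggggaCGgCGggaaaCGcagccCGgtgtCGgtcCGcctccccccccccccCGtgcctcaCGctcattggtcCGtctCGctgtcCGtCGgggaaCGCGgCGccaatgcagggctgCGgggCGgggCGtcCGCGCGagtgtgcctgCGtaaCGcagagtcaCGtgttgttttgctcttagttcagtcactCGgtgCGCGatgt
The Igf1 sequence holds 5 CG dinucleotides, near the median of 6 over all 32851 such sequences of the table. Igfbp3, Igfbp7 and Irs2 hold 32, 26 and 34, more than 95.4%, 90.4% and 96.5% of all sequences. For 9 of the 10 genes an upstream sequence was given (Insr had none), 12 in all because Igf2 has 4 start sites, and their median was 22 CG dinucleotides. The letters ACGTG, searched on both strands, occur in 4 of these 12 sequences, those of Igfbp7 (position -175 from the start site), Irs1 (-115), Irs2 (-44) and the start site of Igf2 that lies at chr7:142658805-142659054 (-22), against 16.6% of all upstream sequences. In Irs1 and Irs2, the paired adaptor genes, the match is the palindrome CACGTG, which contains ACGTG on both strands and is found in 6.02% of all sequences. Both strings contain a CG, and the 4 sequences with ACGTG hold 22 to 34 CG dinucleotides. The shares over all sequences are not matched for CG content, so they give no measure of enrichment. TATAAA was found in 1 of the 12, at -28 in Igfbp4, against 12.4% of all.

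Among the ligands, Igf1 rose and Igf2 did not pass the test. Igf1 (MGP_C57BL6NJ_G0018019, chromosome 10, 91907890 to 91987972 on the C57BL/6NJ assembly), a growth factor for the cardiomyocyte, had a lowest, median and highest level of 16.9, 18.2 and 21.2 CPM in the WT hearts. In the KO hearts these values were 26.2, 55.9 and 65.3 CPM. The WT hearts lay within a narrow band, and the KO hearts were all above it but spread widely, with KO replicate 6 lowest and KO replicate 3 next at 40.1 CPM. The means were 18.4 ± 1.67 CPM in WT and 50.1 ± 14.3 CPM in KO (SD, n = 6), which is 2.72-fold, and edgeR gave a log2 fold change of 1.44 with a standard error (SE) of 0.18 and an adjusted p of 3.09e-05. The log2 fold change was 1.67 with KO replicates 3 and 6 left out.

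Igf2 (chromosome 7, 153262361 to 153282637), a ligand that is imprinted and is made mainly before birth in mice, had a lowest, median and highest level of 39.4, 63.1 and 73.9 CPM in WT. In KO the values were 28.6, 45.0 and 79.2 CPM. The groups overlapped over most of their range, and the highest of the 12 hearts was KO replicate 4. The means were 60.0 ± 13.0 and 47.9 ± 17.6 CPM (SD, n = 6), with a log2 fold change of -0.32 (SE 0.24, adjusted p = 0.283). Without KO replicate 4 the log2 fold change was -0.52 and passed (adjusted p = 0.0433).

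The balance of the ligands can be read per gene length, from the FPKM values that the authors deposited. The ratio of Igf1 to Igf2 had a lowest, median and highest value of 0.245, 0.290 and 0.452 in the WT hearts and of 0.773, 1.05 and 1.51 in the KO hearts. The ratios did not overlap, although the sum of both ligands did, at 28.3 to 48.0 FPKM in WT and 26.9 to 75.1 FPKM in KO. The ratio depends on the gene length: in CPM per kilobase of the length listed in the table, it was 0.161 to 0.297 in WT and 0.509 to 0.993 in KO, so that Igf1 stayed under Igf2 in every heart. Neither insulin gene gave a single count in any library, which allows at most 3 counts or 0.127 CPM in the shallowest one. Ins2 lies 15238 bases from Igf2.

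**Figure D2:**
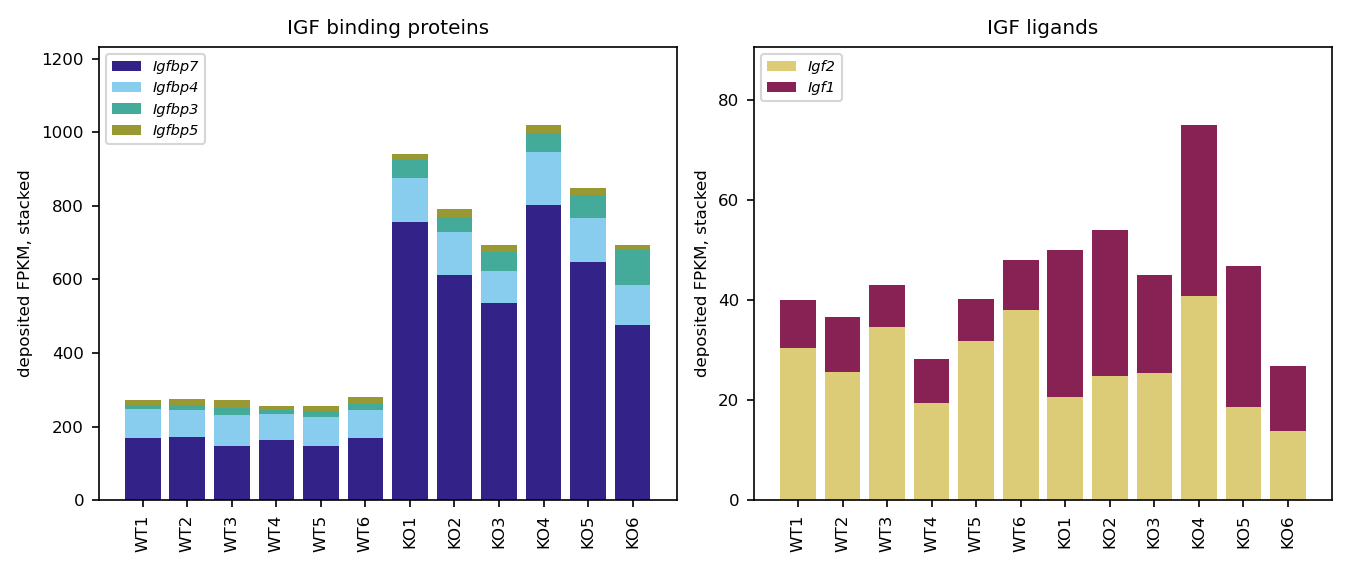
Deposited FPKM of the 4 binding proteins (left) and of the 2 ligands (right), stacked for each of the 12 hearts on axes that start at 0. The binding proteins sum to 255 to 279 FPKM in WT and to 692 to 1020 FPKM in KO, mostly Igfbp7, and Igf1 forms a larger part of the ligand bar in every KO heart than in any WT heart.

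The receptors moved in opposite directions. Insr (MGP_C57BL6NJ_G0033792, chromosome 8, 55684 to 192168), the insulin receptor, lay between 313 and 340 CPM in the WT hearts (median 329) and between 219 and 295 CPM in the KO hearts (median 259). Each KO heart was below each WT heart, and KO replicate 6 was nearest to them. The means of 328 ± 11.2 and 257 ± 26.8 CPM (SD, n = 6) gave a log2 fold change of -0.35 (SE 0.06, adjusted p = 0.000169).

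Igf1r (chromosome 7, 72184994 to 72467942), the receptor for both IGFs, lay between 21.8 and 27.2 CPM in WT (median 25.2) and between 24.1 and 34.0 CPM in KO (median 29.7). The ranges overlapped, with 4 KO hearts above the highest WT heart and KO replicate 3 below the WT mean. The log2 fold change was 0.23 (SE 0.08, adjusted p = 0.0247). The call was lost without WT replicate 1 (0.20, adjusted p = 0.0666), without WT replicate 2 (0.19, adjusted p = 0.0640) and without KO replicate 6 (0.18, adjusted p = 0.0701). Within a heart, the ratio of Insr to Igf1r in FPKM lay between 10.1 and 12.2 in WT and between 6.51 and 9.21 in KO, without overlap. In CPM per kilobase of the listed length it was lower, at 5.97 to 7.17 in WT and 3.84 to 5.43 in KO, and again did not overlap.

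Both receptor substrates had lower means in the KO hearts, and Irs2 passed the test. Irs2 (MGP_C57BL6NJ_G0033843, chromosome 8, 8523792 to 8545229) is an adaptor whose transcription in liver responds to fasting and feeding. Its level had a lowest, median and highest value of 15.3, 33.1 and 56.8 CPM in WT and of 13.1, 16.5 and 18.8 CPM in KO. The WT hearts varied far more than the KO hearts, with coefficients of variation of 40.8% and 11.6%, and WT replicate 1 lay inside the KO range. The log2 fold change was -1.16 (SE 0.26, adjusted p = 0.00277). It was -1.32 without WT replicate 1 and -0.98 without WT replicate 2, the highest heart, and the latter is under the fold threshold of the methods. The adjusted p stayed below 0.05 when any 1 library was left out, but both thresholds were passed in only 3 of those 12 fits. With KO replicates 3 and 6 left out it was -1.17 with an adjusted p of 0.0182, above 0.005. The time of day and the feeding state at collection are not given in the sources used here.

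Irs1 (chromosome 1, 86344306 to 86404098), the substrate that is better known from skeletal muscle, lay between 54.9 and 68.8 CPM in WT (median 58.8) and between 34.6 and 67.7 CPM in KO (median 45.3). Of the KO hearts, 5 lay below every WT heart, and KO replicate 3 was at the top of the WT range. The log2 fold change was -0.33 (SE 0.13, adjusted p = 0.0529). Without KO replicate 3 it was -0.47 and passed (adjusted p = 0.000462), as it did without KO replicates 3 and 6 (-0.54, adjusted p = 4.82e-05). The same heart had the highest sum of cardiomyocyte markers of all 12, at 67628 CPM, against 48732 to 54797 CPM in the other KO hearts. Whether this sum has a part in the level of Irs1 was not tested. The Irs1 row spans an antisense row, Gm9747, with at most 149 counts in a library, and no source used here says whether reads were counted by strand.

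**Figure D3:**
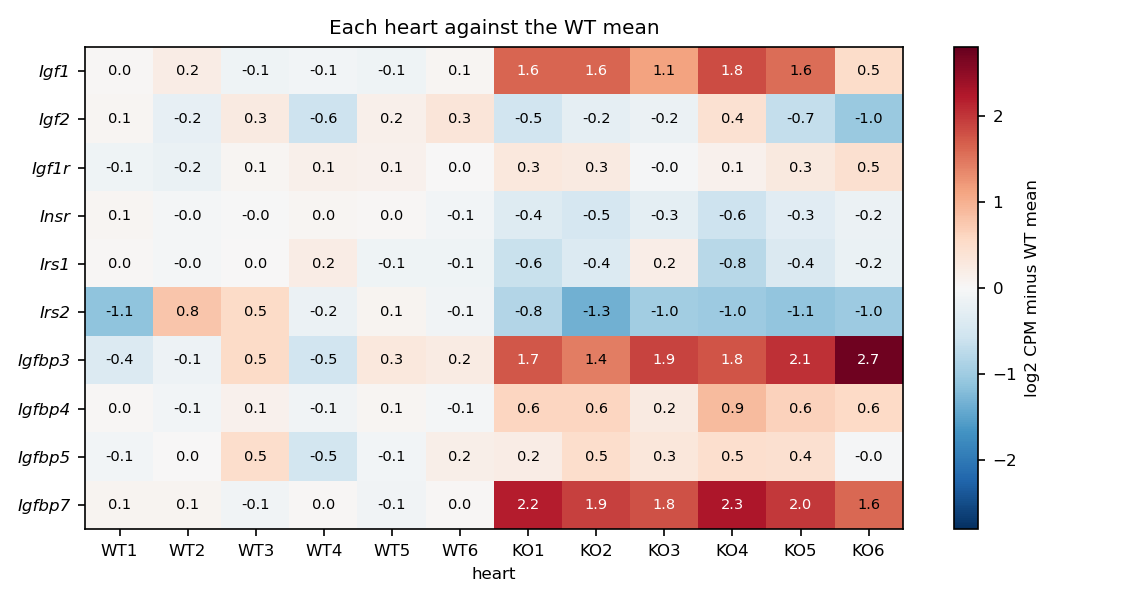
Log2 CPM of each gene in each heart minus the mean of the 6 WT hearts, from blue (lower) through white to red (higher), with the value printed in each cell. Igfbp7, Igfbp3 and Igf1 are red in every KO heart, and the Irs2 row changes colour within WT. KO replicates 3 and 6 depart from the other KO hearts in Irs1 and Igf1, and KO replicate 6 alone in Igfbp3.

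Of the 4 binding proteins, 3 rose, and Igfbp7 and Igfbp3 had the 2 largest log2 fold changes of the 10 genes. Igfbp7 (MGP_C57BL6NJ_G0030090, chromosome 5, 80711395 to 80781504) had a lowest, median and highest level of 174, 190 and 196 CPM in WT and of 565, 722 and 900 CPM in KO. The gap between the groups was wider than the range of either of them. The means were 187 ± 10.1 and 736 ± 128 CPM (SD, n = 6), a 3.94-fold difference with a log2 fold change of 1.98 (SE 0.10, adjusted p = 3.24e-10), a size exceeded by few rows, since 96.7% of those tested had a smaller one. Its last 85 bases overlap Polr2b on the other strand, a gene with at most 2068 counts in a library against at least 4295 for Igfbp7.

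Igfbp3 (MGP_C57BL6NJ_G0018427, chromosome 11, 4491468 to 4499305), the main carrier of IGFs in blood plasma, had values of 20.5, 31.0 and 43.4 CPM in WT and of 81.2, 107 and 198 CPM in KO (lowest, median and highest). All KO hearts lay above the WT hearts, and KO replicate 6 stood far above the other KO hearts. The means of 30.9 ± 8.82 and 119 ± 40.9 CPM (SD, n = 6) differed 3.86-fold, with a log2 fold change of 1.95 (SE 0.25, adjusted p = 5.03e-05). Without KO replicate 6 the log2 fold change was 1.74. Its neighbour Igfbp1, 3539 bases away, had 0 counts in the WT libraries and 1 in the KO libraries.

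Igfbp4 (chromosome 11, 104812099 to 104826250), a binding protein that blocks IGF action until the protease PAPP-A cleaves it, lay between 85.0 and 98.7 CPM in WT (median 90.3) and between 107 and 167 CPM in KO (median 138). The groups were apart, with KO replicate 3 lowest and KO replicate 4 highest among the KO hearts. The log2 fold change was 0.60 (SE 0.08, adjusted p = 9.22e-06), a 1.52-fold difference of the means.

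Igfbp5 (chromosome 1, 76239470 to 76256429), a binding protein that attaches to the extracellular matrix, lay between 55.8 and 112 CPM in WT (median 77.9) and between 77.3 and 111 CPM in KO (median 104). The highest heart of all was WT replicate 3, and the KO hearts stayed within the WT range. The log2 fold change was 0.29 (SE 0.14, adjusted p = 0.103), and it was 0.40 and passed without WT replicate 3 (adjusted p = 0.0109).

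Two-sided exact permutation tests of the mean CPM gave p = 0.00216 for Igf1, Insr, Igfbp3, Igfbp4 and Igfbp7, the smallest value that 6 against 6 hearts allow. The exact p was 0.0130 for Irs2, 0.0281 for Igf1r, 0.0455 for Irs1, 0.0779 for Igfbp5 and 0.203 for Igf2. With Benjamini-Hochberg adjustment over all rows in edgeR, Irs1 lay just outside the threshold of 0.05 and Igf1r just inside it.

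Per gene length the genes can be ranked against each other. In deposited FPKM, the WT order was Igfbp7 (161), Igfbp4 (76.6), Insr (59.4), Igf2 (30.0), Igfbp5 (15.8), Igfbp3 (14.9), Igf1 (9.39), Irs2 (8.96), Irs1 (6.50) and Igf1r (5.52). The ranges of Igfbp7, Igfbp4, Insr and Igf2 over the 6 hearts were apart from each other, and from Igf2 down each gene overlapped the next. In KO the order was Igfbp7 (638), Igfbp4 (117), Igfbp3 (57.6), Insr (46.5), Igf1 (25.6), Igf2 (24.0), Igfbp5 (19.4), Igf1r (6.49), Irs1 (5.14) and Irs2 (4.02). There, Igfbp3 overlapped both Igfbp4 and Insr, Igf1, Igf2 and Igfbp5 overlapped in that order, and so did Igf1r, Irs1 and Irs2. The sum of the 4 binding proteins rose from 268 ± 10.4 to 831 ± 133 FPKM (SD, n = 6), and the share of Igfbp7 in it from 60.0% ± 3.62 to 76.3% ± 4.09. The order, the sum of the binding proteins and the share of Igfbp7 all depend on the gene length used. The FPKM of Igfbp4 was computed with a length of 1182 bases, whereas 3826 are listed. The FPKM of Igf1 was computed with a length of 1964 bases, whereas the table lists 7052, and in CPM per kilobase of the listed length Igf1 came last of the 10 in WT (2.62) and seventh in KO (7.10).

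The summed markers of fibroblasts and of endothelial cells were higher in every KO heart than in any WT heart. The sums of the other cell types overlapped between the groups. For cardiomyocytes the overlap came from KO replicate 3 alone (67628 CPM). The other KO hearts, at 48732 to 54797 CPM, lay below the lowest WT heart (57763 CPM). Beside the marker counts given here, 25.6% of all rows tested were higher and 25.5% lower. Of 10 fibroblast markers, 8 rose and 2 fell, the median log2 fold change being 0.90, and their sum rose from between 3068 and 3638 CPM to between 4099 and 6334 CPM. Most of the added CPM came from the matrix genes Col1a1, Col1a2, Col3a1, Postn and Dcn. The mean of Pdgfra rose from 75.6 to 138 CPM and that of Tcf21 from 10.7 to 16.3 CPM, and Dpt and Gsn fell. Among the KO hearts, KO replicates 6 and 3 had the lowest fibroblast sums (4099 and 4517 CPM) and also the lowest levels of Igf1 and of Igfbp7. Of 10 endothelial markers, 6 were higher and 2 lower, with a median of 0.26, and their sum lay between 1757 and 1967 CPM in WT and between 2016 and 2347 CPM in KO. KO replicate 6, which had the most Igfbp3, had 2112 CPM of these markers, within the range of the other KO hearts. Of 9 mural cell markers, 3 were higher and 2 lower (sums 1864 to 2048 CPM in WT, 1708 to 2258 CPM in KO), of 9 macrophage markers 1 was higher and 2 lower (294 to 411 CPM and 295 to 431 CPM), and of 9 cardiomyocyte markers 4 were lower, with a median of -0.20. Neither of the 2 erythroid markers passed (293 to 1012 CPM and 615 to 1226 CPM), nor did any of 3 B cell markers, and the sum of 4 adipocyte markers stayed at or under 0.688 CPM in every library. The part of these cells in the levels of the 10 genes was not tested. In RNA of whole tissue, more or fewer cells of a type cannot be told apart from more or less RNA per cell.

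**Figure D4:**
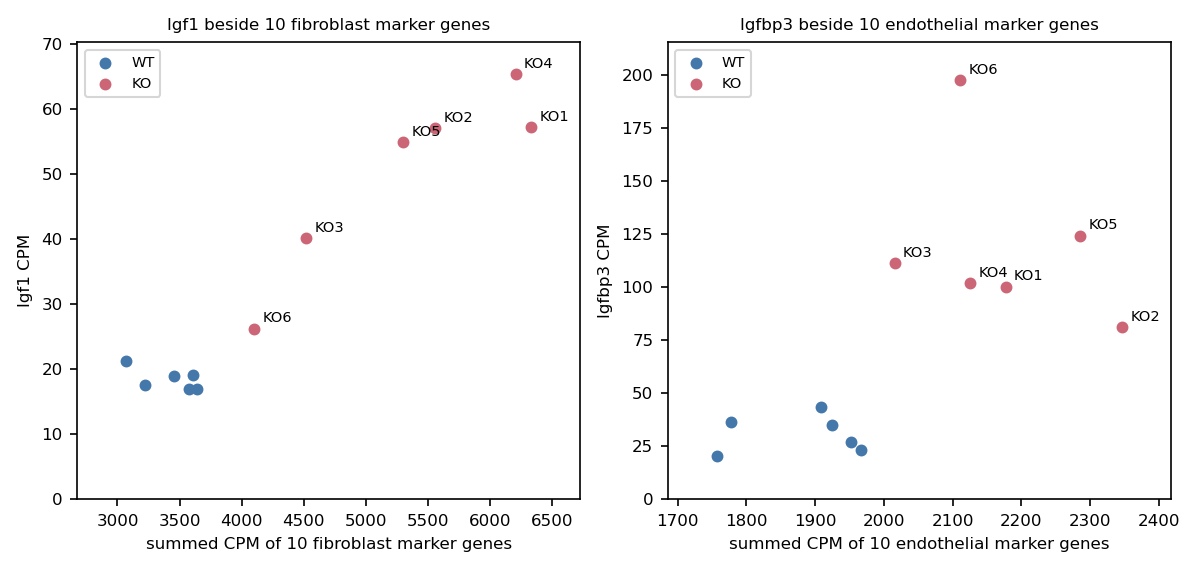
Left, Igf1 against the summed CPM of 10 fibroblast marker genes. Right, Igfbp3 against the summed CPM of 10 endothelial marker genes, with 1 point for each heart, WT in blue and KO in red with its replicate number. The KO hearts with the lowest fibroblast sums, KO6 and KO3, have the lowest Igf1. KO6 has the highest Igfbp3 at an endothelial sum of 2112 CPM, above that of KO3 and below those of the other KO hearts.

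The genes with the most similar profiles were sought for the 4 genes past both thresholds, by the root mean square difference of log2 CPM, each profile centred on its WT mean, over 12 hearts and 12795 named genes. Nearest to Igf1 were Mrc2, a collagen receptor (difference 0.16, log2 fold change 1.39), Aspn, a small matrix proteoglycan (0.17 and 1.50), and Loxl1, a lysyl oxidase (0.18 and 1.34). Nearest to Igfbp7 were Bgn, the proteoglycan biglycan (0.12 and 2.03), Ace, the angiotensin-converting enzyme (0.13 and 1.95), and Loxl3, another lysyl oxidase (0.14 and 2.05). Nearest to Igfbp3 were Egln3, a prolyl hydroxylase (0.31 and 2.14), Bhlhe40, a transcriptional repressor (0.31 and 2.00), and Stc1, the hormone stanniocalcin 1 (0.34 and 1.95). Nearest to Irs2 were Fosb, an immediate early gene (0.31 and -0.95), Tbc1d10c (0.31 and -1.24) and Klf2, an endothelial transcription factor that responds to shear stress (0.36 and -1.06). Fosb had a mean of only 0.985 CPM in WT and 0.510 CPM in KO, so its profile rests on few counts. The profiles near Igfbp3 and Irs2 were less close than those near Igf1 and Igfbp7. Because of the centring on the WT mean, the size of the KO shift enters the difference. Nearness therefore does not by itself show that genes vary together between hearts, and shared regulation was not tested.

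The rest of the pathway was described with 6 lists of 78 genes, of which 67 were tested. Of these, 27 were higher and 19 lower, or 40.3% and 28.4%, beside 25.6% and 25.5% of all rows. The lists were written with earlier results of these data known, so the counts are descriptions.

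Among genes that set how much IGF is free, 5 of 8 tested were higher and 1 was lower (2 lower without KO replicates 3 and 6), with a median log2 fold change of 0.49. Among the genes past the filter on low counts, the largest rises were those of the stanniocalcins, secreted proteins that inhibit PAPP-A. Stc1 lay between 2.96 and 6.41 CPM in WT and between 13.1 and 21.0 CPM in KO (log2 fold change 1.95, SE 0.18, adjusted p = 2.65e-07). Stc2 lay between 14.7 and 21.2 CPM in WT and between 35.5 and 68.2 CPM in KO (1.50, SE 0.16, adjusted p = 3.4e-06). Neither gene had overlapping groups. The member that fell was Igf2r, the receptor that takes IGF2 to the lysosome, from 273 ± 20.7 to 229 ± 13.5 CPM (SD, n = 6), a log2 fold change of -0.26 (SE 0.06, adjusted p = 0.00123). Its span holds an unnamed antisense row with up to 514 counts.

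Among adaptors and feedback regulators of the receptors, 7 of 15 tested were higher and 2 lower (3 lower without KO replicates 3 and 6), with a median of 0.27. Grb14, an adaptor that binds the insulin receptor and inhibits its kinase, fell from 141 ± 4.01 to 77.6 ± 2.12 CPM (SD, n = 6), with a tight range in both groups and a log2 fold change of -0.86 (SE 0.04, adjusted p = 6.7e-11). Gab1, a docking protein for PI3K, fell with a log2 fold change of -0.50 (SE 0.06, adjusted p = 1.79e-06). Sh2b2, another adaptor, rose from a low level of 0.649 to 1.54 CPM (1.24, SE 0.22, adjusted p = 0.000186), and Sos1, the exchange factor that links the receptors to RAS, rose with a log2 fold change of 0.27 (adjusted p = 0.000310). Irs4 had no counts in any library.

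Of 14 genes of PI3K and AKT, 5 were higher and 1 lower, with a median of 0.13. Pik3r3, a regulatory subunit of PI3K, rose from 21.5 ± 1.71 to 40.1 ± 8.26 CPM (SD, n = 6; log2 fold change 0.90, SE 0.11, adjusted p = 5.83e-06). Akt2, the AKT form tied most to insulin action, fell from 196 ± 9.09 to 149 ± 10.6 CPM (SD, n = 6; -0.40, SE 0.05, adjusted p = 8.57e-06). Akt1, singled out after its value had been seen, had a log2 fold change of 0.27 (adjusted p = 0.00390).

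The list named AKT targets also holds genes that are not direct targets, such as those of the Mtor complexes. Of its 20 genes, 7 were higher and 10 lower, with a median of -0.05. Tbc1d4, the RAB-GTPase activating protein through which insulin moves the glucose transporter GLUT4 to the cell surface, changed most, from between 155 and 179 CPM in WT to between 37.6 and 59.4 CPM in KO (log2 fold change -1.85, SE 0.09, adjusted p = 2.1e-10). Foxo4, a transcription factor that AKT excludes from the nucleus, fell by 0.52 on the log2 scale (adjusted p = 2.22e-06). Mtor, the kinase of the growth complexes, rose from 64.1 ± 3.28 to 98.3 ± 9.88 CPM (SD, n = 6; 0.62, SE 0.06, adjusted p = 4.14e-07), although its span overlaps Angptl7, a gene with up to 3400 counts on the other strand. Rptor, its partner in complex 1, rose with a log2 fold change of 0.32 (adjusted p = 0.000170).

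**Figure D5:**
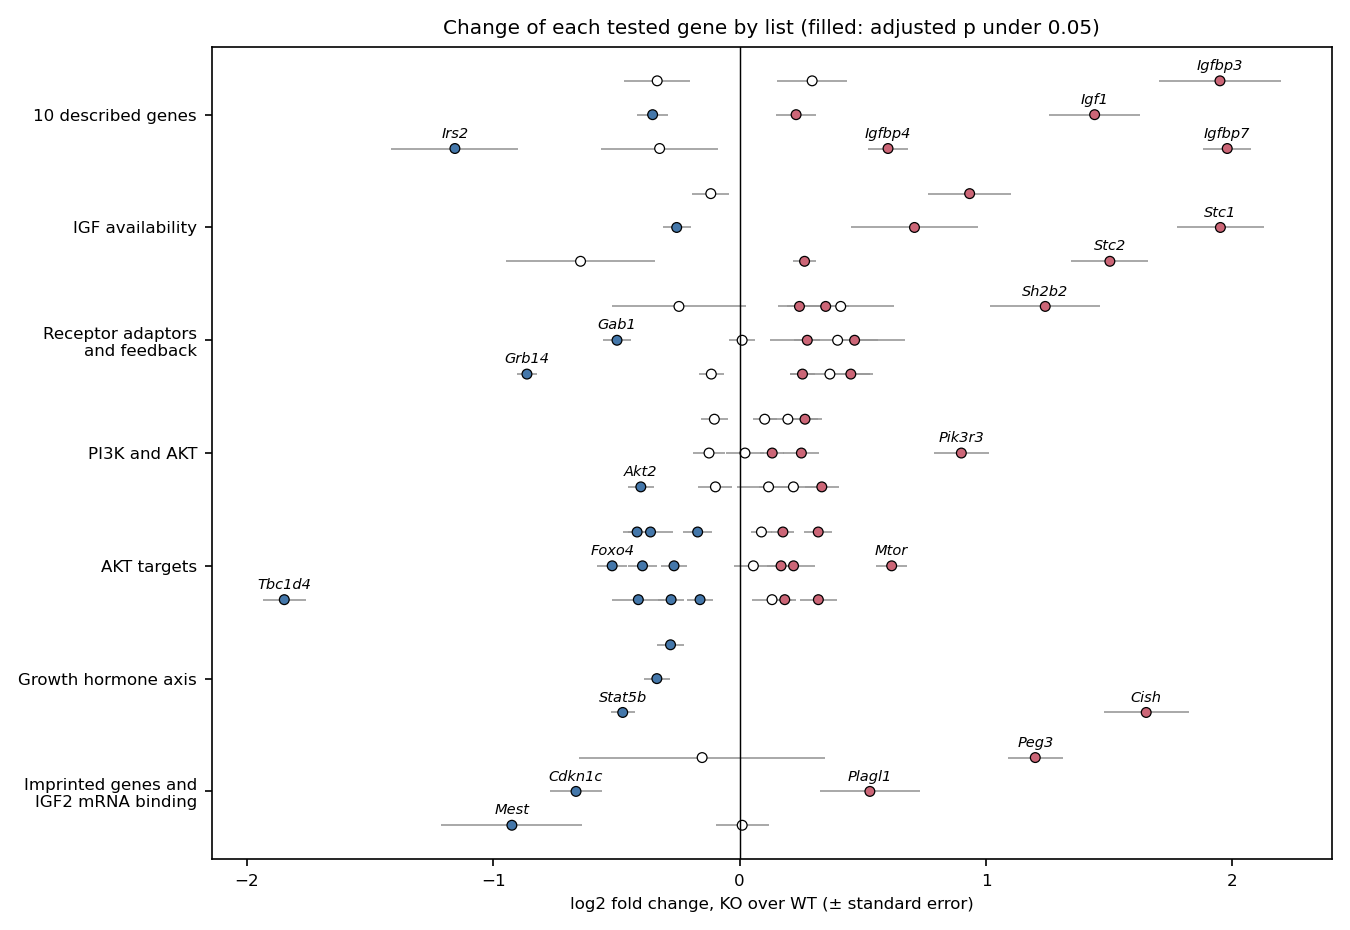
Log2 fold change (KO over WT) with its standard error for every tested gene of the 10 described genes and of the 6 pathway lists, each list spread over 3 rows for legibility. Filled points passed an adjusted p under 0.05 (red higher, blue lower), and the points farthest out are Igfbp7, Stc1, Igfbp3 and Cish to the right and Tbc1d4 to the left.

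In the growth hormone axis, which controls Igf1 in liver, 1 of 4 tested genes was higher and 3 were lower. Cish, an inhibitor that is itself a target of STAT5, rose from 33.6 ± 8.08 to 106 ± 18.7 CPM (SD, n = 6; log2 fold change 1.65, SE 0.17, adjusted p = 5.81e-06), with an unnamed antisense row of up to 267 counts inside its span. Stat5b and Jak2, the transcription factor and the kinase of the receptor, had log2 fold changes of -0.47 (adjusted p = 4.07e-07) and -0.34 (adjusted p = 4.72e-05). Ghr, the growth hormone receptor, named as the remaining gene after its value had been seen, had one of -0.28 (adjusted p = 0.000476).

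Of 6 tested genes that are imprinted like Igf2 or bind its mRNA, 2 were higher and 2 lower (1 lower without KO replicates 3 and 6). Peg3, a paternally expressed zinc finger gene, rose from 59.1 ± 9.53 to 136 ± 18.8 CPM (SD, n = 6; log2 fold change 1.20, SE 0.11, adjusted p = 6.23e-07). Plagl1, a transcription factor, had a log2 fold change of 0.53 (adjusted p = 0.0419), a call that was lost in 8 of the 12 fits leaving out 1 library (WT replicates 1 to 5, KO replicates 2 to 4), where the adjusted p reached 0.0987 without KO replicate 3. Cdkn1c, a maternally expressed inhibitor of the cell cycle, fell by 0.66 on the log2 scale (adjusted p = 6.02e-05), and Mest by 0.92 (adjusted p = 0.0176). The span of Mest shares 912 bases with Copg2 on the other strand. Copg2 had up to 2131 counts in a library, and Mest as few as 190. Mest did not pass without KO replicates 3 and 6 (-0.76, adjusted p = 0.0945).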

How the data were processed

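RNA-seq of 12 ventricular walls was analysed. Per the labels and methods, mRNA was selected on poly-T beads, and the authors deposited raw counts of reads per gene (HTSeq) and FPKM per library. The submitters' processing notes name HISAT2 2.0.5 and mm10, whereas the row identifiers belong to the C57BL/6NJ strain, whose coordinates are used here; the strand setting is not stated. The deposited FPKM rest on a gene length at or under the listed one. The group means (signal of scaled counts, FPKM) and the log2 fold changes and p-values of the authors' own comparison, also deposited, were not used.

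The counts were tested with edgeR 4.0.16 under R 4.3.3 (filterByExpr, TMM, robust quasi-likelihood test, Benjamini-Hochberg over 17155 rows), tested on simulated data first. A standard error is the size of the log2 fold change over the root of F. Alternatives were 3 scalings, DESeq2 1.42.0, limma-voom (limma 3.58.1), 2 filters, a replicate block and each library left out; leaving out KO replicates 3 and 6 together was added after the data were seen. The genes and lists were chosen with earlier results of these data known. Genes named from a list are the 2 with the smallest p in each direction, plus any said to be singled out; no list test was made. Some items are not reported here. Stat5a, Socs2, H19, Meg3, Actn2, Lyz2, Hba-a2, Hbb-bs and Hbb-bt matched no row and were not analysed here. Nothing in the labels says how the hearts were sampled beyond separate samples, so p-values measure the spread between them.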

Additional observations from a re-analysis of the deposited data

Results flagged for a closer look

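Among 62 groups of 6 values (the 10 genes and 21 others taken from the lists, in each genotype), 2 had an extreme heart whose distance to its neighbour, as a share of the range, passed Dixon's 95% critical value; chance alone gives about 3.1. Igfbp3 in KO replicate 6 was at 197.6 CPM, the other KO hearts at 81.2 to 124 CPM. Pik3r3 in KO replicate 2 was at 55.3 CPM, the other KO hearts at 34.0 to 41.8 CPM.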

How the results depend on the processing

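No fit reversed the direction of any of the 10 genes. Of 210 refits of single genes, 200 stayed on the same side of an adjusted p of 0.05, 3 lost the call (Igf1r) and 7 gained one (Igf2 and Igfbp5 once each, Irs1 the others). Across all alternatives, leaving out a library included, 4 to 6 genes were higher, 2 to 3 lower and 3 to 4 past both thresholds. Irs1 passed with library size as the only scaling (-0.34, adjusted p = 0.0270), with DESeq2 (0.0266), with limma-voom (0.0212) and with KO replicates 3 and 6 left out (-0.54), over a range of adjusted p from 4.82e-05 to 0.110. For the pathway lists, leaving out 1 library gave 4 to 5 higher and 1 to 3 lower genes for IGF availability. The ranges were 6 to 8 higher and 2 to 3 lower for receptor adaptors and feedback. They were 4 to 6 higher and 1 to 2 lower for PI3K and AKT, and 5 to 7 higher and 8 to 10 lower for AKT targets. The imprinted list had 1 to 2 higher genes. In the other alternatives, IGF availability had 4 to 7 higher genes. With KO replicates 3 and 6 left out, IGF availability had 2 lower genes and the imprinted list 1. The imprinted list had 1 higher gene with limma-voom (Plagl1 lost, adjusted p = 0.0509) and, with the replicate number as a block, 1 higher and 1 lower (Plagl1 lost, 0.0906, and Mest lost, 0.0901). Plagl1 was also lost when all rows with at least 1 count were fitted (0.0778). The cause of these shifts was not tested. Replicate numbers name the hearts and pair nothing in the labels, and same-numbered WT and KO hearts had correlated deviations between -0.250 and 0.0800. Under the block the 10 genes kept 5 higher and 2 lower calls, and Irs2 (-1.06, adjusted p = 0.0258) left the stricter threshold, and it passed that threshold and the fold in 3 of the 12 fits that left out 1 library. Ranked by CPM per kilobase of the listed length, 1 of the 10 genes (Igfbp7) kept its FPKM rank in WT. Depth limits the genes under 1 CPM, which rest on few counts.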

Other observations

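Some IGF genes under the filter on low counts, chosen here after their values had been seen, had more counts in the KO hearts. Igfbp2, a binding protein abundant in fetal tissue whose gene lies 5437 bases from Igfbp5, had 0 counts in the 6 WT libraries and 59 in the KO libraries, with 4 to 26 in each of them. Its level was 17.1-fold that of a floor of 3 counts over the WT group, with no allowance for the counting error of the KO counts. Igf2bp1, an mRNA-binding protein of fetal tissue that binds the Igf2 message, had 2 counts in WT and 39 in KO, a ratio of 17.0. A WT library held at most 1 count of Igf2bp1 and each KO library 2 to 12. Pappa2, a protease that cleaves IGF binding proteins, had 8 counts in WT and 52 in KO, a ratio of 5.66. Its groups overlapped, with up to 4 counts in a WT library and 2 to 17 in each KO library. Since they were chosen for this difference, no test is given. All 3 genes stayed under 1 CPM in every heart. Pappa, the related protease, passed the filter and rose by a log2 fold change of 0.71 (SE 0.26, adjusted p = 0.0302), with overlapping groups (1.02 to 1.82 CPM in WT, 1.41 to 4.14 CPM in KO). Its call was lost with limma-voom (0.65, adjusted p = 0.0516) and without WT replicates 3, 4 or 6 or KO replicate 1, the last giving 0.43 with an adjusted p of 0.113.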
